A study of Mus musculus with 9 samples.

Results

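The genes described here are the cytokines, decoys, receptor chains and inflammasome parts of the interleukin-1 system. They are 10 genes chosen by name, with earlier results of these data known, out of 23238 gene symbols measured. The 10 are Il1a, Il1b, Il1rn, Il18, Il18bp, Il1r2, Il1rap, Casp1, Nlrp3 and Pycard. They were measured by QuantSeq, which counts reads from the 3ʹ end of transcripts, in monocytes sorted on day 1 as CD45+ CD11b+ P2ry12- Ly6C+ Ly6G- cells. The mice were female wild-type C57BL/6N of 12 weeks of age in the study's model of neuromyelitis optica (NMO), an antibody disease that attacks astrocytes.

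Of the 3 groups, Nor_Bl_mono held blood monocytes of normal mice, and NMO_Bl_mono and NMO_Br_mono held blood and brain monocytes of mice that had received NMO-IgG from patients with human complement in the striatum. There were 3 libraries per group, described as independent biological replicates, and 5 mice were pooled for each. Brain cells were released with enzymes and spun through Percoll, while blood cells came from a density gradient, so tissue, lesion and preparation cannot be told apart between brain and blood. Brain monocytes of normal mice and a group given control IgG were not analysed here.

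Interleukin-1 beta and interleukin-1 alpha are inflammatory cytokines that act through the same receptor. The interleukin-1 receptor antagonist, made from Il1rn, occupies that receptor without signalling, and the decoy receptor made from Il1r2 captures the cytokine. Interleukin-1 beta and interleukin-18 are made as inactive precursors, which caspase-1 cuts once a sensor such as NLRP3 and the adaptor ASC, made from Pycard, have assembled an inflammasome. These are proteins, and the values below are amounts of RNA, which do not show cutting or release.

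In brief, 4 of the 10 genes, Il1b, Il1rn, Il18 and Pycard, lay higher in each of the 3 brain libraries than in any of the 6 blood libraries. Of the 10107 genes tested, which leave out Il18bp, 3.57% had this pattern. Nlrp3 did not share this pattern and had its highest values in blood. Il1a, Il1r2, Il1rap and Casp1 varied so widely within groups that no order of the groups could be read. Il18bp was counted in 1 library. No gene of the 10 passed an adjusted p under 0.05 by edgeR in the main fit of all libraries, which filtered out low counts. Without that filter, Il1b passed against both blood groups and Il1rn against NMO_Bl_mono. With the filter, Il1b also passed against both once the blood libraries numbered 3 were left out, a choice made after seeing the data. Those libraries had the least Il1b, so this result depends on that choice, and 2 libraries per blood group remained.

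The promoters of the 4 genes that lay above all blood libraries are shown together with that of Nlrp3, the sensor gene, whose mean was lowest in brain. Each sequence is the 250 bases before the transcription start in RefSeq, build GRCm38.p6, read 5′ to 3′ on the strand of the gene. All 10 genes matched the RefSeq table. Il1rn has 3 listed starts and Nlrp3 has 2, and the most upstream is shown for both. Capitals mark matches to the motifs named in the paragraph after them.
Il1b promoter, chr2:129371140-129371389, - strand: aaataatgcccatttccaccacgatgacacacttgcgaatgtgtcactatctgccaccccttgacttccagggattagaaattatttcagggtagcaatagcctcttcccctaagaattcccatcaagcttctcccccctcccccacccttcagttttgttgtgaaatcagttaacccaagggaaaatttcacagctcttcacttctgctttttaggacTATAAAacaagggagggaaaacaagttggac
Il1rn promoter, chr2:24336610-24336859, + strand: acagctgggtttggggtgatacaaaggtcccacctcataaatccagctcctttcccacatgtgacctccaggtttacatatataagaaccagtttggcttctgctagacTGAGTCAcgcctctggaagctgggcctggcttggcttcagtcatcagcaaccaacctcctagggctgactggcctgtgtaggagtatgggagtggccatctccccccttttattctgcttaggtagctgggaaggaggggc
Il18 promoter, chr9:50554450-50554699, + strand: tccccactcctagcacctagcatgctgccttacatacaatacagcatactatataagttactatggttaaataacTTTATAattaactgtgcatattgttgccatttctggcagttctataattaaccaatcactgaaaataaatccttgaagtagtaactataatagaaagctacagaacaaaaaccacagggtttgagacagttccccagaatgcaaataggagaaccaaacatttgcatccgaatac
Pycard promoter, chr7:127993868-127994117, - strand: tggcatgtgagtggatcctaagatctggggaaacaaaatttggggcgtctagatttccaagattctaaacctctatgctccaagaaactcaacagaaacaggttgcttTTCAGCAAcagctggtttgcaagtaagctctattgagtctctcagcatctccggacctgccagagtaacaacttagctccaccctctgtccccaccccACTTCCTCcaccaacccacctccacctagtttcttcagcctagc
Nlrp3 promoter, chr11:59541319-59541568, + strand: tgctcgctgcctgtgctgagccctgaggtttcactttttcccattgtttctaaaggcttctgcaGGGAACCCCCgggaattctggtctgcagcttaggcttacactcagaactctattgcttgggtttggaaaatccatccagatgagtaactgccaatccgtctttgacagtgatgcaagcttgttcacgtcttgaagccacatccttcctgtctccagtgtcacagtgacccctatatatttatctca

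The 5 motifs searched on both strands of these windows were the NF-kappaB site (by its consensus, kappaB), the PU.1 core GAGGAAGT, the C/EBP site TTGCNNAA, the AP-1 site TGANTCA and the TATA box TATAAA. Distances count back from the transcription start to the first base of the match as printed. Il1b had a TATA box at -31, and Il18 had the same letters on the other strand at -175. Il1rn had an AP-1 match at -141. Pycard had a C/EBP match at -142 and a PU.1 match at -44, both on the other strand. Nlrp3 had the only kappaB match among the 10 genes, at -186. The windows before the other listed starts of Il1rn and Nlrp3, not shown, held none of the 5 motifs. Of 32851 RefSeq promoter windows of the same length, 7.25% held the kappaB motif, 2.44% the PU.1 core, 9.56% the C/EBP site, 6.75% the AP-1 site and 12.4% the TATA box. Among the 10 genes the same motifs were held by 1, 1, 2, 2 and 3 genes. None of the 5 motifs was held by all of Il1b, Il1rn, Il18 and Pycard. A match is a run of letters and was not tested as a binding site.

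The genes lie at separate loci in GRCm38.p6, the patch release of the mm10 build that the submitters' processing notes name. Il1a (chr2:129299609-129310186) and Il1b (chr2:129364569-129371164) are neighbours on the minus strand of chromosome 2, and Il1rn (chr2:24336860-24351491) is on its plus strand. Il18 (chr9:50554700-50581841) and Casp1 (chr9:5298517-5307281) are on chromosome 9, Pycard (chr7:127991373-127993867) and Il18bp (chr7:102015074-102018232) on chromosome 7. Nlrp3 (chr11:59541569-59566955), Il1r2 (chr1:40084692-40125230) and Il1rap (chr16:26581509-26730128) are each alone on their chromosome among the 10. Exons of Il1b are overlapped by the antisense gene Il1bos, and those of Il1a, Il18bp, Il1rap and Pycard by genes on the opposite strand too. How the counting used strand is not given in the sources used here, so reads of these 5 genes and their opposite-strand partners cannot be told apart. The counts are per gene symbol and cannot separate the forms of Il1rn that start at different sites.

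Total counts ranged from 7584649 to 10419647 per library, and the ribosomal RNA entry Rn45s took 28.4% to 43.6% of them. NMO_Bl_mono replicate 3 stood apart, with 4567 genes detected against up to 11556 elsewhere. Among genes that reached 50 CPM in both companion libraries of the group, 22.3% had 3 counts or fewer in it, against 8.26% in NMO_Br_mono replicate 2 and at most 1.94% in the others. CPM is a gene's count relative to a library total set to 1000000 after TMM scaling, and 3 counts, the floor used here, correspond to 0.273 to 0.432 CPM. Many genes thus dropped out of single libraries, and the common dispersion of the fit, its measure of spread between replicates, was 2.87. The monocyte markers were all detected in each group. Their summed levels were 4473 to 5733 CPM in Nor_Bl_mono, 3585 to 6736 in NMO_Bl_mono and 5249 to 8659 in NMO_Br_mono. Single markers differed within these sums. Ly6c2 was at 437, 59.4 and 199 CPM in brain, below the 462 to 933 CPM of the blood libraries. Ccr2, Cd14 and Itgam lay above all blood libraries in brain, and the other markers overlapped. Cd14 had no read in NMO_Bl_mono replicate 3. In a bulk sample, fewer cells that make an RNA and less RNA per cell cannot be told apart.

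Il1b, which encodes interleukin-1 beta, was read in depth in brain monocytes, with 9663 to 15926 counts per library. Its levels in NMO_Br_mono were 1595, 1515 and 961 CPM in replicates 1, 2 and 3. NMO_Bl_mono had 239, 306 and 0 CPM. Nor_Bl_mono had 111, 123 and 0.102 CPM. The brain libraries did not overlap with blood, and the lowest of them was 3.14 times the highest blood library. The blood libraries numbered 3 had 1 read of Il1b between them, while the other 4 had 770 to 2813 reads each. The group means were 1357 ± 345 CPM in NMO_Br_mono, 182 ± 161 in NMO_Bl_mono and 78.1 ± 67.8 in Nor_Bl_mono (SD, n = 3 each).

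The fitted difference of Il1b between NMO_Br_mono and NMO_Bl_mono was 2.90 on the log2 scale (SE 1.72), with an adjusted p of 0.903 by edgeR's quasi-likelihood test. Against Nor_Bl_mono it was 4.12 (SE 1.82), and edgeR's unadjusted p of 0.0398 became 0.708 after adjustment. Without the 2 blood libraries numbered 3, a choice made after seeing the data, the differences were 2.33 and 3.55 with edgeR's adjusted p of 0.0451 and 0.00997. These fits rest on 2 libraries per blood group and leave out the 2 with the least Il1b, so their p-values depend on that choice. Over all alternatives, the adjusted p of the comparison with NMO_Bl_mono ranged from 6.23e-07, by edgeR with no filter on low counts, to 1. The study chose Il1b, Il18 and Il1rn for display from these libraries, so their order here is not independent of that choice.

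Il1rn, which encodes the receptor antagonist, had 359, 225 and 139 CPM in NMO_Br_mono. In NMO_Bl_mono it had 9.10, 20.9 and 0 CPM, and in Nor_Bl_mono 0.288, 24.5 and 37.0 CPM. Again every brain library lay above every blood library, with the lowest at 3.75 times the highest in blood. Its high and low blood libraries were not those of Il1b, since Nor_Bl_mono replicate 3 had the most Il1rn and almost no Il1b. The fitted difference from NMO_Bl_mono was 4.59 on the log2 scale (SE 1.73), with an unadjusted p of 0.0188 and an adjusted p of 0.802 by edgeR's test. Against Nor_Bl_mono it was 3.55 (SE 1.64), with an unadjusted p of 0.0489 and an adjusted p of 0.708 by the same test. DESeq2 gave an adjusted p of 0.0387 for the first of these comparisons, where the alternatives ranged from 0.0248 to 1.

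Agonist and antagonist can be set against each other within a library, where the scaling between libraries cancels. In NMO_Br_mono there were 4.44, 6.73 and 6.93 reads of Il1b for each read of Il1rn. NMO_Bl_mono replicates 1 and 2 had 26.0 and 14.6, and Nor_Bl_mono replicate 2 had 5.02. In the other 3 blood libraries 1 or both genes had 3 reads or fewer, and the ratio could not be read. The brain libraries thus held a narrow range, below both readable NMO_Bl_mono libraries and on both sides of the readable Nor_Bl_mono library. On the log2 scale the brain ratio was 2.56 ± 0.359 (SD, n = 3). The permutation tests set for this ratio would take in the 3 libraries without a readable value and say nothing of it, so no p is given.

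Il18, which encodes interleukin-18, had 322 to 566 counts in each brain library. Its levels were 36.4, 31.7 and 56.3 CPM in NMO_Br_mono replicates 1, 2 and 3. NMO_Bl_mono had 14.1, 10.3 and 0 CPM, and Nor_Bl_mono had 3.60, 8.03 and 1.84 CPM. The brain libraries did not overlap with blood, and the lowest was 2.24 times the highest blood library. The fitted difference was 2.34 (SE 2.31) from NMO_Bl_mono and 3.20 (SE 2.39) from Nor_Bl_mono on the log2 scale, and neither passed edgeR's test with or without adjustment. Il18bp, which encodes the soluble binding protein that holds interleukin-18 in check, had 33 reads in NMO_Br_mono replicate 1 and none in the other 8 libraries. It did not pass the filter on low counts and was the 1 gene of the 10 left out of the fits. A ratio of Il18 to Il18bp could be read only in that library, where it was 9.63, and no p is given for it. No reads in a library allow a level of up to 0.273 to 0.432 CPM, by counting error alone.

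**Figure D1:**
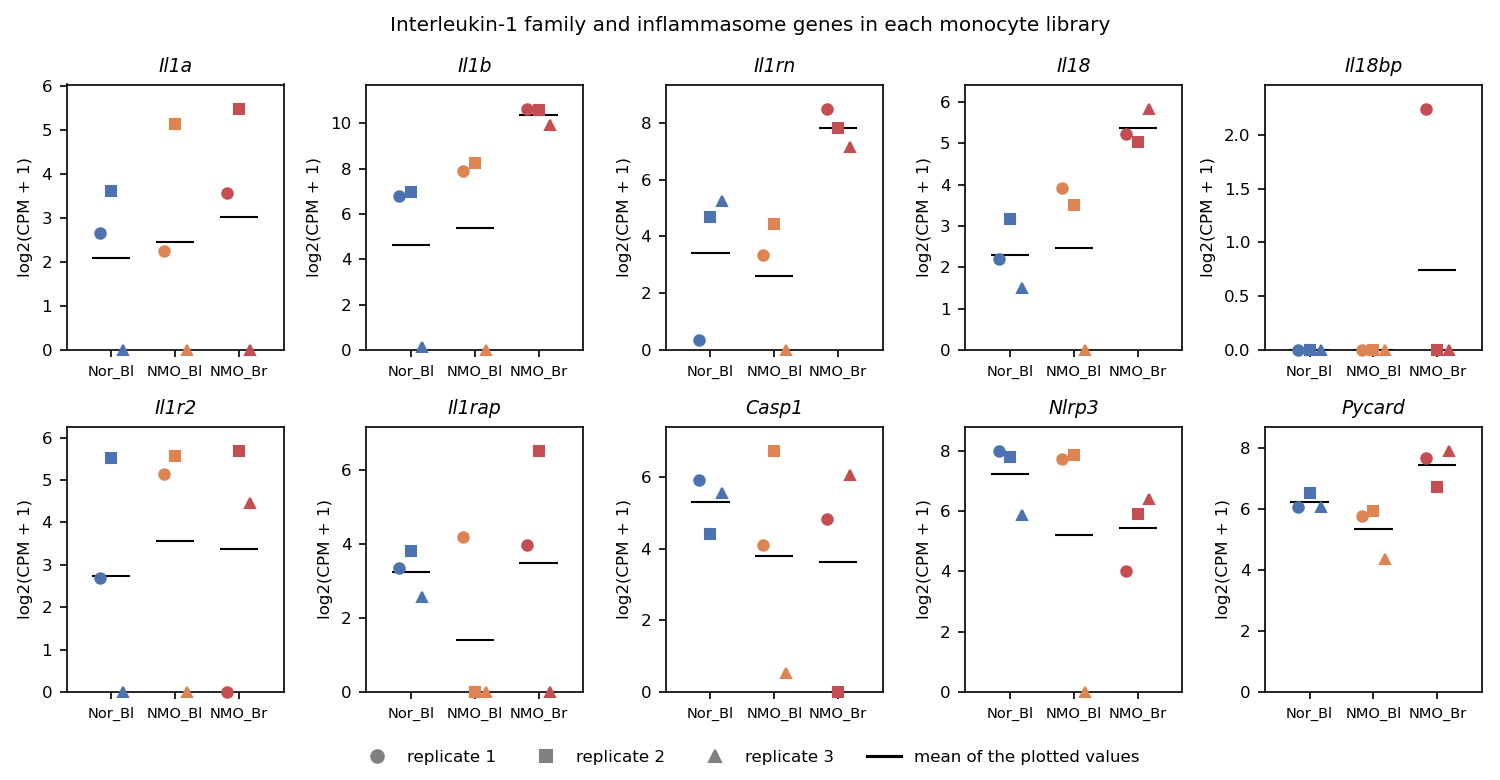
Levels of the 10 genes in each library, as log2(CPM + 1) on the vertical axis with a scale of its own in each panel. Points are libraries, with the replicate number as their shape, and lines are the means of the plotted values. Il1b, Il1rn, Il18 and Pycard are the 4 panels in which the 3 brain points lie above all 6 blood points, and many points of the other genes lie at 0.

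Pycard, which encodes the adaptor ASC, was the member counted most evenly. It had 205, 105 and 243 CPM in NMO_Br_mono, 54.5, 60.2 and 19.6 in NMO_Bl_mono, and 66.6, 92.1 and 66.5 in Nor_Bl_mono. Each brain library was above each blood library, though NMO_Br_mono replicate 2 exceeded Nor_Bl_mono replicate 2 by a factor of only 1.14. Pycard was also the 1 member whose blood groups did not overlap, with every NMO_Bl_mono library below every Nor_Bl_mono library. The fitted difference between brain and NMO_Bl_mono was 2.04 on the log2 scale (SE 0.77), with an unadjusted p of 0.0188 and an adjusted p of 0.802 by edgeR's test. It was 1.30 (SE 0.75) against Nor_Bl_mono and -0.75 (SE 0.74) between the blood groups, with adjusted edgeR p of 0.806 and 1.

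Nlrp3, the sensor of this inflammasome, had its lowest group mean in brain. It had 15.2, 59.1 and 83.4 CPM in NMO_Br_mono, 213, 228 and 0 in NMO_Bl_mono, and 255, 218 and 57.7 in Nor_Bl_mono. Of the blood libraries numbered 3, that of Nor_Bl_mono lay within the brain range and that of NMO_Bl_mono below it, and the other 4 blood libraries were all above it. The fitted differences were -1.48 (SE 1.46) from NMO_Bl_mono and -1.75 (SE 1.47) from Nor_Bl_mono, and edgeR's adjusted p was 1 for both. Without the blood libraries numbered 3, a choice made after seeing the data, they were -2.06 and -2.15. The unadjusted edgeR p was 0.00965 and 0.00761, and the adjusted p was 0.486 and 0.375. Every brain library lay below NMO_Bl_mono replicates 1 and 2, as it did for 20.3% of all genes tested, so this order is a common one once replicate 3 is set aside.

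Casp1, which encodes the protease that cuts both cytokine precursors, overlapped fully between the groups. It had 27.5, 0 and 65.7 CPM in NMO_Br_mono, 16.1, 105 and 0.455 in NMO_Bl_mono, and 58.7, 20.3 and 46.3 in Nor_Bl_mono. The fitted differences of brain from the NMO_Bl_mono and Nor_Bl_mono groups were -0.39 (SE 1.95) and -0.43 (SE 1.96). Its group means, 31.0 CPM in NMO_Br_mono, 40.6 in NMO_Bl_mono and 41.8 in Nor_Bl_mono, ran in the same order as those of Nlrp3, with all groups overlapping. Whether Pycard, Nlrp3 and Casp1 differed from each other in their response was not tested.

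Il1a, which encodes interleukin-1 alpha, had 10.9, 43.7 and 0 CPM in NMO_Br_mono, 3.78, 34.1 and 0 in NMO_Bl_mono, and 5.32, 11.3 and 0 in Nor_Bl_mono. In all 3 groups replicate 2 was the highest and replicate 3 had no read, so the groups overlapped fully. Il1r2, the decoy receptor, had 0, 50.7 and 21.0 CPM in NMO_Br_mono, 34.3, 46.4 and 0 in NMO_Bl_mono, and 5.47, 44.8 and 0 in Nor_Bl_mono. Il1rap, the accessory chain that the interleukin-1 receptor needs to signal, had 14.7, 91.9 and 0 CPM in NMO_Br_mono, 17.5, 0 and 0 in NMO_Bl_mono, and 9.35, 13.2 and 5.01 in Nor_Bl_mono. Fitted differences of brain from NMO_Bl_mono were 0.53 (SE 3.02) for Il1a, -0.17 (SE 2.65) for Il1r2 and 2.61 (SE 2.95) for Il1rap. Each of these 3 genes had no read in 3 of the 9 libraries. Without NMO_Bl_mono replicate 1, the only library of its group with Il1rap reads, the Il1rap fit gave 11.4 with an unadjusted p of 0.0352 and an adjusted p of 0.895 by edgeR, a fold change that depends on the prior count. Without NMO_Br_mono replicate 2 it was 0.344.

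**Figure D2:**
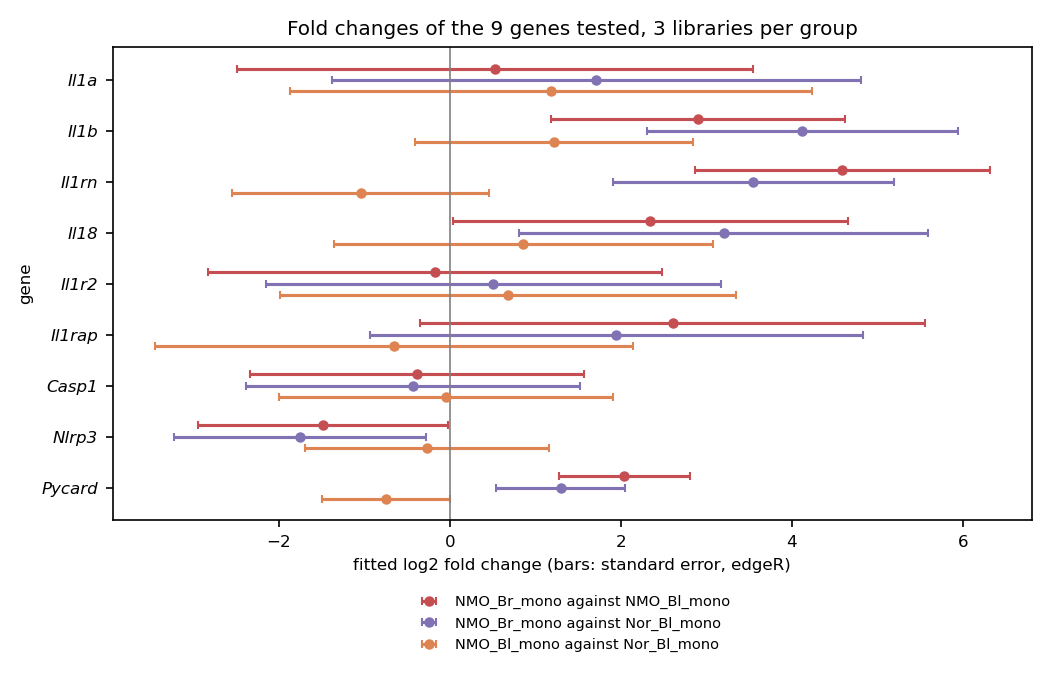
Fitted log2 fold changes of the 9 genes that passed the filter, for the 3 comparisons, with bars of 1 standard error from edgeR on the horizontal axis. Il1rn and Il1b have the largest positive differences of brain from blood, Nlrp3 is on the negative side, and the bars of Il1a, Il1r2, Il1rap and Casp1 cross 0 in each comparison with NMO_Bl_mono.

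Read against all genes, the 9 genes tested were counted as follows. They were chosen with earlier results of these data known. The shares and medians in each comparison thus describe the 9 genes and do not test for an excess over all genes. In NMO_Br_mono against NMO_Bl_mono, 0 of 9 had an adjusted p under 0.05 by edgeR, where 0.247% of 10107 genes tested had one. DESeq2 called 1 of them, Il1rn, and limma called 0 with voom weights and 0 on log2(CPM + 1). At the study's threshold of an unadjusted p under 0.05 with a fold of 1.2, edgeR gave 2 of 9 as higher in brain, Il1rn and Pycard, against 1.48% of all genes, and 0 of 9 as lower, against 3.84%. By overlap alone, 4 of 9 had every brain library above every NMO_Bl_mono library, against 6.3% of all genes, and 0 of 9 lay wholly below, against 6.05%. Leaving out NMO_Bl_mono replicate 3, the same 4 genes lay above, against 7.39% of all genes. The median fitted difference was 2.04 over the 9 genes and 0.0507 over all genes.

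In NMO_Br_mono against Nor_Bl_mono, 0 of 9 had an adjusted p under 0.05 by edgeR, DESeq2 or either form of limma, with 0.247% of all genes called by edgeR. The unadjusted threshold was met by 2 of 9 as higher, Il1rn and Il1b, against 1.75% of all genes, and by 0 of 9 as lower, against 4.07%. Every brain library lay above every normal blood library for 4 of 9, against 6.07%, and below for 0 of 9, against 9.37%. Both comparisons use the same brain libraries and are not independent. Set against all 6 blood libraries at once, the brain was wholly above for 4 of 9 genes, against 3.57% of all genes tested, and wholly below for 0 of 9, against 3.13%. The median fitted difference from Nor_Bl_mono was 1.71 over the 9 genes and -0.116 over all genes.

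The comparison of the 2 blood groups asks whether these genes differed in blood between mice with and without the lesion. In NMO_Bl_mono against Nor_Bl_mono, edgeR called 0 of 9 after adjustment and 0% of all genes. At the unadjusted threshold it gave 0 of 9 as higher, against 0.465% of all genes, and 0 of 9 as lower, against 0.247%, and DESeq2 and both forms of limma also gave 0 in either direction. Every NMO_Bl_mono library lay above every Nor_Bl_mono library for 0 of 9, against 2.34%, and below for 1 of 9, Pycard, against 4.45%. Il1b was 1.22 units higher in NMO_Bl_mono on the fitted log2 scale (SE 1.62). The median fitted difference was -0.0405 over the 9 genes and -0.163 over all genes. Without the blood libraries numbered 3, a choice made after seeing the data, the Il1b difference was again 1.22. It had an unadjusted p of 0.00609 and an adjusted p of 1 by edgeR.

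A split that crossed the groups ran through the blood libraries. In both blood groups the library numbered 3 was below replicates 1 and 2 for 6 of the 9 genes, namely Il1a, Il1b, Il18, Il1r2, Nlrp3 and Pycard. This count was made after the values were seen, and 29.4% of all genes tested had the same order. The summed level of dissociation and immediate-early genes, such as Fos and Jun, was also lowest there, at 1621 CPM in Nor_Bl_mono replicate 3 and 1157 in NMO_Bl_mono replicate 3, against 2951 to 8498 in the other 4 blood libraries. The brain libraries had 12510, 6623 and 5562 CPM, of which 8352, 2102 and 947 were the heat-shock genes Hspa1a and Hspa1b, at 0 to 86.3 CPM in blood. Without these 2 genes, a sum added after seeing the values, brain had 4158, 4521 and 4615 CPM and blood 1157 to 8412, and the blood libraries numbered 3 stayed the lowest. Their part in the levels of Il1b and Nlrp3 was not tested.

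Other cells that carry interleukin-1 genes were checked by their markers. Neutrophil markers, of which 11 of 12 were in the files, summed to 499, 1934 and 1187 CPM in NMO_Br_mono, against 85.0 to 299 in Nor_Bl_mono and 127 to 345 in NMO_Bl_mono. In brain S100a8 was at 148, 813 and 390 CPM and S100a9 at 78.8, 660 and 433, against at most 139 and 126 CPM in blood. Ngp, a neutrophil granule gene, was at 57.8, 245 and 102 CPM in brain and 0 to 27.5 in blood, and Lcn2 at 54.3, 144 and 70.8 in brain and 0 to 46.9 in blood. Camp and Ltf had reads in brain replicates 1 and 3, up to 85.0 and 11.3 CPM. Mmp8 overlapped, at 62.0, 34.0 and 131 CPM in brain and 0.818 to 140 in blood. Csf3r overlapped too, at 2.37, 38.7 and 0 CPM in brain and 0 to 16.5 in blood. Retnlg had no read in brain and 0 to 125 CPM in blood. Mmp9 had no read in brain and Cxcr2 was at most 0.565 CPM there, but both were also at or near 0 in most blood libraries. Microglia markers summed to 976, 945 and 832 CPM in brain, against 143 to 396 in Nor_Bl_mono and 0.0909 to 244 in NMO_Bl_mono. Fcrls was at 50.5 to 77.5 CPM in each brain library and had no read in blood, and Tmem119 was at 78.4, 0 and 21.0 CPM in brain and had none in blood. Cx3cr1, which monocytes also express, made up 544, 297 and 337 CPM of the brain sums and 112 to 322 of those in the blood libraries other than NMO_Bl_mono replicate 3. Without it the sums were 432, 648 and 495 CPM in brain and 0 to 74.1 in blood. Border-associated macrophage markers summed to 55.6 to 180 CPM in brain and 108 to 556 in blood, where 108 to 542 CPM were Pf4, which platelets also express. Without Pf4 they summed to 37.4, 180 and 55.6 CPM in brain and 0 to 41.5 in blood, so that 1 blood library overlapped with brain. These sums without single genes were added after seeing the values. The dendritic cell markers summed to 123 to 369 CPM in brain and 9.64 to 172 in blood. The part of microglia and neutrophils in the Il1b, Il1rn, Il18 and Pycard levels was not tested.

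**Figure D3:**
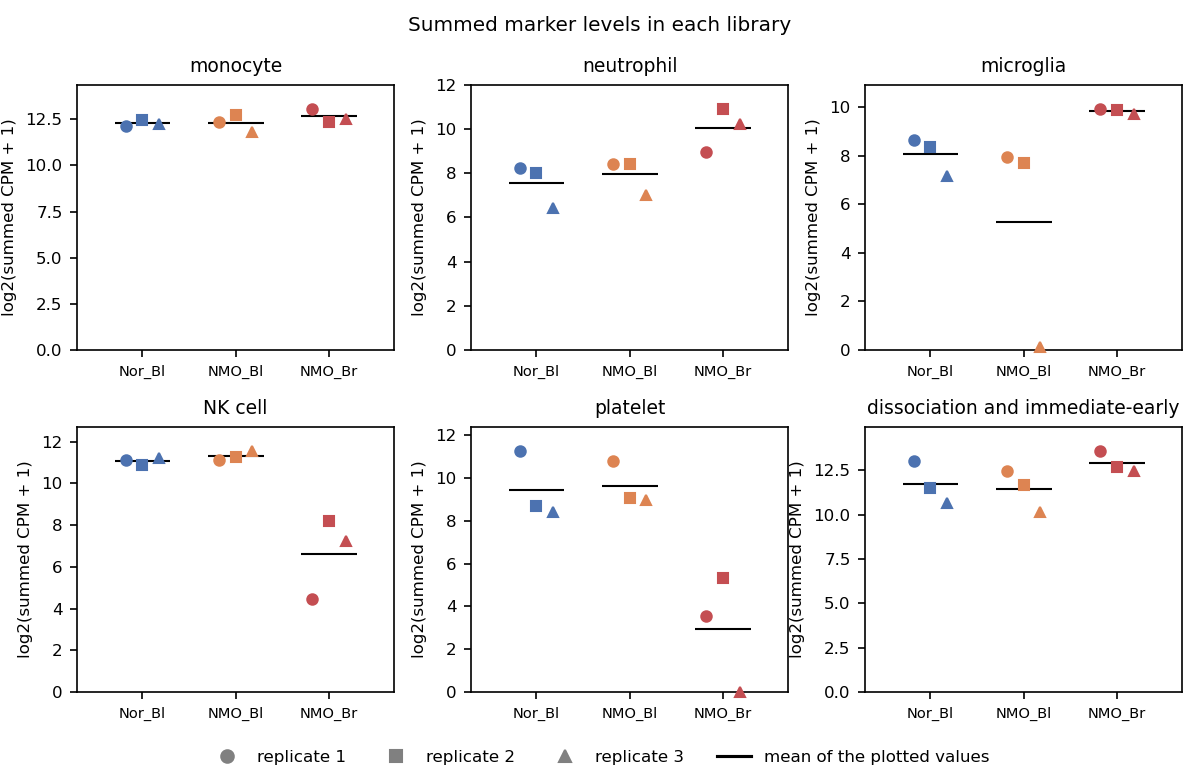
Summed marker levels of 6 lists in each library, as log2(summed CPM + 1) on the vertical axis. Points are libraries and lines are the means of the plotted values. Monocyte sums overlap between the groups, neutrophil and microglia sums are higher in the 3 brain libraries, and NK cell and platelet sums are higher in the 6 blood libraries.

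The wider pathway was read from a list of 59 other genes, of which 55 were in the files and 50 were tested. In NMO_Br_mono against NMO_Bl_mono, edgeR gave 1 as higher and 7 as lower at the unadjusted threshold, against 1.48% and 3.84% of all genes, and 0 after adjustment. In NMO_Br_mono against Nor_Bl_mono it gave 2 as higher and 8 as lower, against 1.75% and 4.07%, and 1 after adjustment, against 0.247%. In NMO_Bl_mono against Nor_Bl_mono it gave 1 as higher and 1 as lower, against 0.465% and 0.247%, and 0 after adjustment. The 14 signalling genes from Myd88 to the IKK kinases gave none in any comparison. The pathway lists were also chosen with earlier results of these data known, so their counts do not test for an excess. Of the 6 other ligands, 2 were in the files and neither was tested.

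Among the receptors, Il18rap, the accessory chain of the interleukin-18 receptor, was the 1 pathway gene to pass the adjusted threshold. It had 1.70, 0 and 0 CPM in NMO_Br_mono, 175, 131 and 114 in NMO_Bl_mono, and 164, 230 and 217 in Nor_Bl_mono. It was lower in brain than in Nor_Bl_mono by -8.49 on the log2 scale (SE 1.56, adjusted p of 0.0403 by edgeR) and than in NMO_Bl_mono by -7.95 (SE 1.52, adjusted p of 0.0502). Il18r1, the ligand-binding chain, had no read in the 3 brain libraries, 66.7, 59.2 and 0 CPM in NMO_Bl_mono, and 111, 37.6 and 73.0 in Nor_Bl_mono. By counting error alone, its mean was at least 124-fold higher in NMO_Bl_mono and at least 218-fold higher in Nor_Bl_mono. These bounds use the highest floor of a brain library. They do not cover the spread between libraries, and NMO_Bl_mono replicate 3 also had no read of Il18r1. The adjusted p by edgeR was 0.308 and 0.224. NK cells also carry this receptor, and their markers summed to 21.3 to 289 CPM in brain, 2217 to 3048 in NMO_Bl_mono and 1891 to 2367 in Nor_Bl_mono. The part of NK cells in this difference was not tested. Il1r1, the signalling receptor for interleukin-1, had at most 2.52 CPM in blood and was found in 1 brain library, at 14.6 CPM.

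Of the 12 target genes of interleukin-1 signalling, edgeR's unadjusted threshold gave 1 as higher and 4 as lower in brain against NMO_Bl_mono, where 1.48% and 3.84% of all genes passed. Against Nor_Bl_mono it gave 1 as higher and 5 as lower, where 1.75% and 4.07% passed, and 0 of the 12 passed after adjustment in either comparison. Ccl2, the chemokine that draws monocytes, had 485, 474 and 483 CPM in NMO_Br_mono, 8.12, 8.60 and 0 in NMO_Bl_mono, and 29.3, 15.9 and 71.6 in Nor_Bl_mono. It was 6.43 units above NMO_Bl_mono (SE 1.35, adjusted p of 0.0848 by edgeR), with brain libraries that hardly differed from each other. Tnfaip3, a brake on NF-kappaB, had 2.60, 146 and 53.7 CPM in brain and 261 to 608 in the 6 blood libraries, a fitted difference from NMO_Bl_mono of -2.96 (SE 0.92, adjusted p of 0.534 by edgeR).

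The remaining targets split along the blood libraries numbered 3. Nfkbia, the inhibitor that NF-kappaB induces, had 1656, 3124 and 1783 CPM in brain, 1417 and 1737 in the blood libraries numbered 3, and 8189 to 9311 in the other 4. Nfkbiz, a related nuclear regulator, had 104, 271 and 97.1 CPM in brain, 37.0 and 106 in those 2 blood libraries, and 924 to 1394 in the other 4. Cxcl1, a neutrophil chemokine, had 1 read in the 3 brain libraries together, none in the blood libraries numbered 3, and 46.8 to 137 CPM in the other 4. For Nfkbia and Nfkbiz the brain libraries thus lay near the blood libraries numbered 3, whereas for Il1b they did not. Il6 had no read in brain and at most 34.1 CPM in blood.

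Among inflammasome sensors and effectors, 20 of 21 were tested. Txnip, a thioredoxin-binding protein linked to NLRP3, had 193, 91.0 and 174 CPM in NMO_Br_mono, 426, 281 and 782 in NMO_Bl_mono, and 480, 231 and 686 in Nor_Bl_mono. Its brain libraries lay below all blood libraries, with a fitted difference of -1.70 from NMO_Bl_mono (SE 0.54, adjusted p of 0.580 by edgeR) and -1.61 from Nor_Bl_mono (SE 0.54, adjusted p of 0.624). Serpinb1a, a protease inhibitor, had 10.2, 20.9 and 35.7 CPM in brain, 14.0, 7.29 and 0 in NMO_Bl_mono and no read in Nor_Bl_mono. Gsdmd, which encodes the pore that releases interleukin-1 beta, had 73.7, 71.2 and 5.37 CPM in brain, 47.6, 66.2 and 0 in NMO_Bl_mono, and 0.288, 64.3 and 7.56 in Nor_Bl_mono. Casp4, which encodes the mouse sensor protease caspase-11, had 24.2, 155 and 24.8 CPM in brain and 0 to 143 in blood. Both overlapped between all groups.

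**Figure D4:**
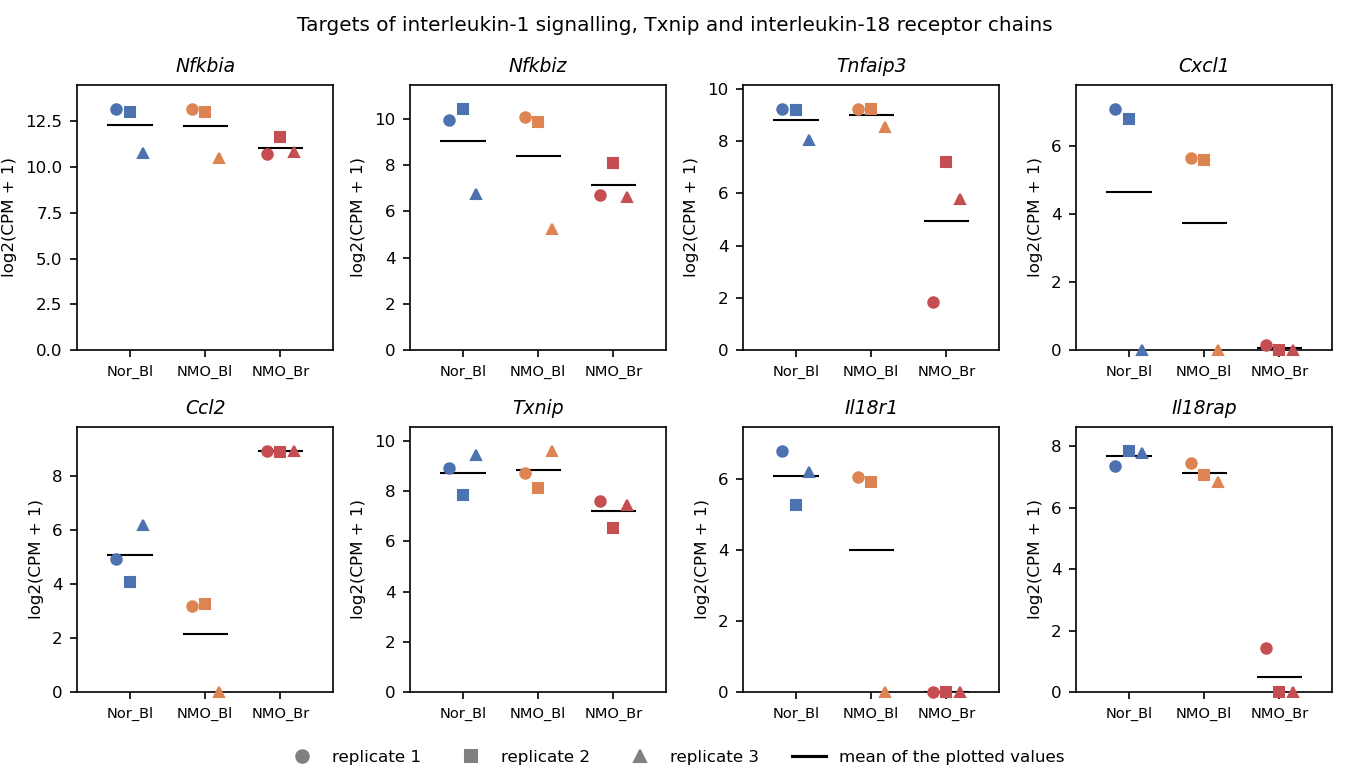
Levels of 8 other genes of the pathway in each library, as log2(CPM + 1) on the vertical axis with a scale of its own in each panel. Points are libraries and lines are the means of the plotted values. Ccl2 is the 1 panel of these 8 with all brain points above blood, Il18r1 and Il18rap are at or near 0 in brain, and Nfkbia, Nfkbiz and Cxcl1 are low in the blood libraries numbered 3.

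Across the 9 libraries, the 5 genes of 10107 whose levels ran closest to Il1b were Cd300lf, Hk2, Clec4d, Clec5a and Ccdc109b. Each gene was centred on its own mean of log2(CPM + 1), and the distance to Il1b, as a root mean square over the libraries, was 1.01, 1.09, 1.33, 1.40 and 1.44 in that order. Cd300lf, an inhibitory receptor of myeloid cells, had a mean of 265 CPM in NMO_Br_mono, 46.0 in NMO_Bl_mono and 21.5 in Nor_Bl_mono. Hk2, the glycolytic enzyme hexokinase 2, had 233, 65.0 and 61.2 CPM in the same order. Clec4d and Clec5a, myeloid lectin receptors, had 140 and 130 CPM in brain and 15.4 to 46.9 in the blood groups. In each of the 5, the lowest brain library was above the highest blood library, as for Il1b itself and for 3.57% of all genes tested. The 5 were picked for running close to Il1b over the same libraries. Their order thus follows largely from the way they were picked and is no separate result. Of the other members tested, Il18 was nearest to Il1b, at 2.29 and rank 222, followed by Il1a at 2.98 and Il1rn at 3.07, and Casp1 was at 4.15 and rank 7066.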

How the data were processed

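Sorted monocytes of 3 groups were measured with 9 QuantSeq 3ʹ libraries. The authors aligned reads with Bowtie2 and tallied both unique and multiple alignments over genes with bedtools. They deposited raw read counts per gene symbol before any scaling. Versions are not given in the sources used here, and the build named in the processing notes is mm10. Groups came from the sample labels. Since multiple alignments entered the tally, near-identical genes are uncertain.

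Of 23282 entries per library, 35 symbols were listed more than once. Their entry with the highest total was used, leaving 23238 symbols. With R 4.3.3 and edgeR 4.0.16, 10107 genes passed filterByExpr. TMM factors and the quasi-likelihood test (glmQLFit, glmQLFTest) were applied to all 9 libraries in a single fit with group as the only term, and p-values were adjusted by Benjamini-Hochberg over all genes tested. Calls were an adjusted p under 0.05 and, separately, the study's unadjusted p under 0.05 with a fold of 1.2. Standard errors are the log2 fold change over the square root of its F statistic. Total counts were 7584649 to 10419647, and floors of 3 counts cover counting error only. Ratios were set to be tested by two-sided exact permutation of log2 values after adding 0.5 to each count, and are given as values since the 0.5 decides them where a gene has no read. DESeq2 1.42.0 and limma 3.58.1 were alternatives, with other scaling, filters, a replicate block and each library left out. The fits were also run on simulated counts, whose dispersions were all below the 2.87 of these data. That run does not show how the fits behave at this spread.

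The 10 genes, the lists and the rule for naming were chosen with earlier results of these data known. The rule named all 10, the pathway genes past the unadjusted threshold in any comparison, Il1r1, Il18r1, Il18rap, Gsdmd and Casp4, and the 5 genes nearest to Il1b. Leaving out both blood libraries numbered 3 and the counts without NMO_Bl_mono replicate 3 were added after seeing the data. Summed markers of other cells were also computed. Those of B and T cells were 0 to 11.4 CPM in brain and 0 to 88.8 in blood. Platelet markers summed to 0 to 39.8 CPM in brain and 341 to 2473 in blood. Erythroid markers summed to 1.05 to 402 CPM in brain and 898 to 5403 in blood. The part of these cells in the levels of the 10 genes was not tested.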

Additional observations from a re-analysis of the deposited data

How the results depend on the processing

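Il1b, Il1rn, Il18 and Pycard kept their direction against both blood groups in each alternative in which they could be tested, while few calls held. In NMO_Br_mono against NMO_Bl_mono, the number of the 9 genes with an adjusted p under 0.05 went from 0 to 2 with no filter (Il1b and Il1rn), 1 with DESeq2 and 1 without the blood libraries numbered 3. The number past the unadjusted threshold went from 2 to 1 when 10 counts in every library were required, which left Pycard alone, to 4 without those blood libraries, and to between 0 and 3 with single libraries left out, 0 being without NMO_Br_mono replicate 1. In NMO_Br_mono against Nor_Bl_mono, the adjusted number went from 0 to 1 with no filter and 1 without those blood libraries. The unadjusted number went from 2 to 1 with the 10-count filter, 1 with the replicate block, 1 with DESeq2, 4 with the 2 groups alone, 4 with voom weights, and 0 to 2 with single libraries left out. It was 0 without Nor_Bl_mono replicate 3 or either of NMO_Br_mono replicates 1 and 2. In NMO_Bl_mono against Nor_Bl_mono, it went from 0 to 1 with no filter and 1 without the blood libraries numbered 3. There the genes wholly below went from 1 to 0 with library sizes alone and were 1 to 2 with single libraries left out, and those wholly above were 0 to 2. The genes wholly below in brain were 0 to 1 against either blood group.

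The following directions turned, and the cause was not tested. For brain against NMO_Bl_mono, Il1r2 turned to 0.0302 with RLE factors and with DESeq2, 0.039 with library sizes alone and 2.75 with the replicate block. Il1a turned to -2.87 with voom and -0.0506 without the blood libraries numbered 3, and Nlrp3 to 0.247 with limma on log2(CPM + 1). With single libraries left out, Il1r2 ranged from -1.34 to 0.49, Il1a from -1.2 to 3.27 and Casp1 from -1.55 to 1.92. For brain against Nor_Bl_mono, voom gave -0.909 for the median, -2.48 for Il1r2, -2.59 for Il1rap and -1.72 for Il1a. The replicate block gave -0.739 for Il1rap, and leaving out the blood libraries numbered 3 gave -0.0625 for Il1r2. With single libraries left out, Il1r2 ranged from -0.656 to 3.13, Il1rap from -0.307 to 2.55, Il1a from -0.0165 to 2.77 and Casp1 from -1.59 to 0.176. Between the blood groups, the median and Casp1 turned to 0.0503 with library sizes alone and 0.623 without the blood libraries numbered 3. Voom gave 1.15 for the median, 0.00729 for Nlrp3, 1.77 for Il1rn and 0.15 for Casp1, and Il1rn was 0.272 without those libraries. With single libraries left out, the median ranged from -0.732 to 0.542, Nlrp3 from -0.732 to 0.322, Il1a from -1.55 to 2.24 and Casp1 from -2.33 to 0.542. The difference in the log2 ratio of Il1b to Il1rn, over all libraries with unreadable ones included, then ranged from -1.72 to 0.629 for brain against NMO_Bl_mono, -2.73 to 5.36 against Nor_Bl_mono and -2.44 to 5.65 between the blood groups. That of Il18 to Il18bp ranged from -0.0232 to 4.68 for brain against NMO_Bl_mono and -2.26 to 1.57 between the blood groups.

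Between brain and blood, same-numbered libraries were not always the closest. Their correlations were -0.0102 to 0.0585 for brain against NMO_Bl_mono and -0.00111 to 0.0342 against Nor_Bl_mono. Between the blood groups they were 0.0151 to 0.116, and each library correlated best with its own number. Whether same-numbered libraries were handled together is not given in the labels. With the replicate block, edgeR gave 3 genes past the unadjusted threshold and 0 after adjustment for brain against NMO_Bl_mono. The gene gained was Il1b, at 6.41 with an unadjusted p of 0.0142 and an adjusted p of 0.849. Against Nor_Bl_mono, Il1b alone remained, at 7.56 with an unadjusted p of 0.00494. Depth gives floors of 0.273 to 0.432 CPM, but in brain libraries of like depth Il1rap had 966 reads or none, and Il1a 459 or none.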
